A study of Mus musculus with 8 samples.

Results

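The miR-148 and miR-152 family in mouse comprises mmu-miR-148a-3p, mmu-miR-148b-3p and mmu-miR-152-3p, the 3p arms of paralogous miRNA genes that carry the same seed. Members were taken by name from the miRNA names in the scanner files, which gave 3 of the 611 mouse miRNAs on the array (650 miRNAs with those of mouse viruses). The rule uses names and no measured value, although the family was chosen with earlier results of these data known. The study asked how wild type Indian hedgehog (IHH) signaling and the E95K mutant signaling of brachydactyly type A1 differ downstream, and its list of genes near Gli1 binding sites in the WT group holds the miR-152 gene, so miR-152-3p was compared here with its paralogues.

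All cells were C3H10T1/2, an established mouse mesenchymal line. The WT group received 750 nM wild type IhhN and the MT group 750 nM E95K mutant IhhN for 48 h, both as the N-terminal part of human IHH purified from E. coli. The control group was labelled as not induced by protein and was kept for the same 48 h. A dose of 750 nM stands in the control labels too, and was read here as no protein. There were 2 RNA samples in each group, and both WT samples were placed on 2 arrays, which gave 8 one-colour Agilent miRNA arrays on 1 slide. The labels do not say whether the RNA samples of a group came from separate cultures, so the p-values measure the spread between these samples only, which may be technical. The number of arrays limits the precision of every value below.

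A miRNA guides a silencing complex to mRNAs that pair with its seed, bases 2 to 8 from the 5′ end, so miRNAs with 1 seed share many predicted targets. The family is known for repressing the DNA methyltransferase Dnmt1, and miR-148a is known to favour adipocyte differentiation, a fate open to C3H10T1/2 cells. Hedgehog ligands act through the receptor Ptch1 and the Gli transcription factors, of which Gli1 is both an activator and a target. The mature sequences are shown because the members can be told apart by few bases, and the seed is in capitals (RefSeq, GRCm38.p6, 5′ to 3′).
mmu-miR-148a-3p: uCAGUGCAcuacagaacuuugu
mmu-miR-148b-3p: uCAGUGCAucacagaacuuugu
mmu-miR-152-3p: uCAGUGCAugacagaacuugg

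All 3 members had the seed CAGUGCA, and among the 1738 mature mouse miRNAs of the RefSeq table no others did. Counted from 1 at the 5′ end, mmu-miR-148b-3p differed from mmu-miR-148a-3p by C9U and U10C, with the base of mmu-miR-148a-3p first. Relative to the same miRNA, mmu-miR-152-3p carried C9U, U10G and U20G and was 1 base shorter, at 21 against 22. From mmu-miR-148b-3p to mmu-miR-152-3p the changes were C10G and U20G, so the pair was equal at 19 of 21 aligned positions. How far a probe of one member binds another member was not tested.

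In GRCm38.p6, mmu-miR-148a-3p lies at chr6:51269829-51269850 on the minus strand, within the 99-base hairpin gene Mir148a (chr6:51269812-51269910). This gene is inside the span of Gm38821, a gene with predicted transcripts only. mmu-miR-148b-3p lies at chr15:103285185-103285206 on the plus strand, in Mir148b (chr15:103285125-103285221), within the span of Copz1. mmu-miR-152-3p lies at chr11:96850439-96850459 on the plus strand, in Mir152 (chr11:96850393-96850465), within the span of Copz2. Copz1 and Copz2 are paralogues that encode the zeta subunits of the COPI vesicle coat, so the hosts of miR-148b and miR-152 are related as the miRNAs are. Exons and introns were not resolved, because the gene table used gives spans only.

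Of 7 mesenchymal or fibroblast marker miRNAs, such as miR-199a and miR-214, 6 were detected on all 8 arrays and 7 on at least 1. None of the marker miRNAs of blood (5), epithelium (5), liver (1), muscle (3), neurons (2) or pluripotent cells (5) was detected on any array. The number of mouse miRNAs detected ranged from 104 to 150 per array. Each array was divided by a 75th percentile, taken over 174 probes that were detected throughout. This divisor was 442 to 565 on the WT arrays, 432 and 442 on the MT arrays and 606 and 785 on the control arrays. This step therefore lifted the induced groups relative to the control group, by ratios that are given below with each unscaled value.

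The members were first examined as the scanner recorded them, after subtraction of background and before scaling between arrays. Each member had 2 probes of 10 spots, and no spot of a member was saturated. The brighter probe of miR-148a-3p gave 57.7 and 63.6 signal units on the arrays of WT replicate 1, 94.9 and 70.8 on those of WT replicate 2, 56.4 and 66.6 in the MT group, and 169 and 127 in the control group. Both control arrays were above all induced arrays. That of miR-152-3p, the member with the gene near a Gli1 peak, gave 58.4, 62.4, 83.2 and 65.6 in the WT group in the same order, 60.4 and 69.8 in the MT group, and 157 and 103 in the control group. Here too both control arrays were above all induced arrays. The 75th percentile of the arrays was ordered in the same way, at 606 and 785 in the control group and at most 565 in the induced groups. The order was thus also that of the arrays as a whole. The share of all miRNAs with it was not counted, so it is not read as a feature of these members. The brighter probe of miR-148b-3p gave 90.1, 92.2, 99.0 and 76.9 in the WT group, 97.4 and 82.2 in the MT group, and 101 and 87.5 in the control group. For this member the groups overlapped, and no array stood apart.

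In means of log2 values, the unscaled signal of miR-148a-3p in the WT group was 0.481 of that in the control group, that of miR-152-3p was 0.526 and that of miR-148b-3p was 0.950. In the MT group the ratios to control were 0.418, 0.511 and 0.953. The percentile that divides each array was itself at 0.711 of control in the WT group and 0.634 in the MT group. Thus miR-148a-3p and miR-152-3p were further below control than the percentile, and miR-148b-3p, close to control before scaling, was above control after it.

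**Figure D1:**
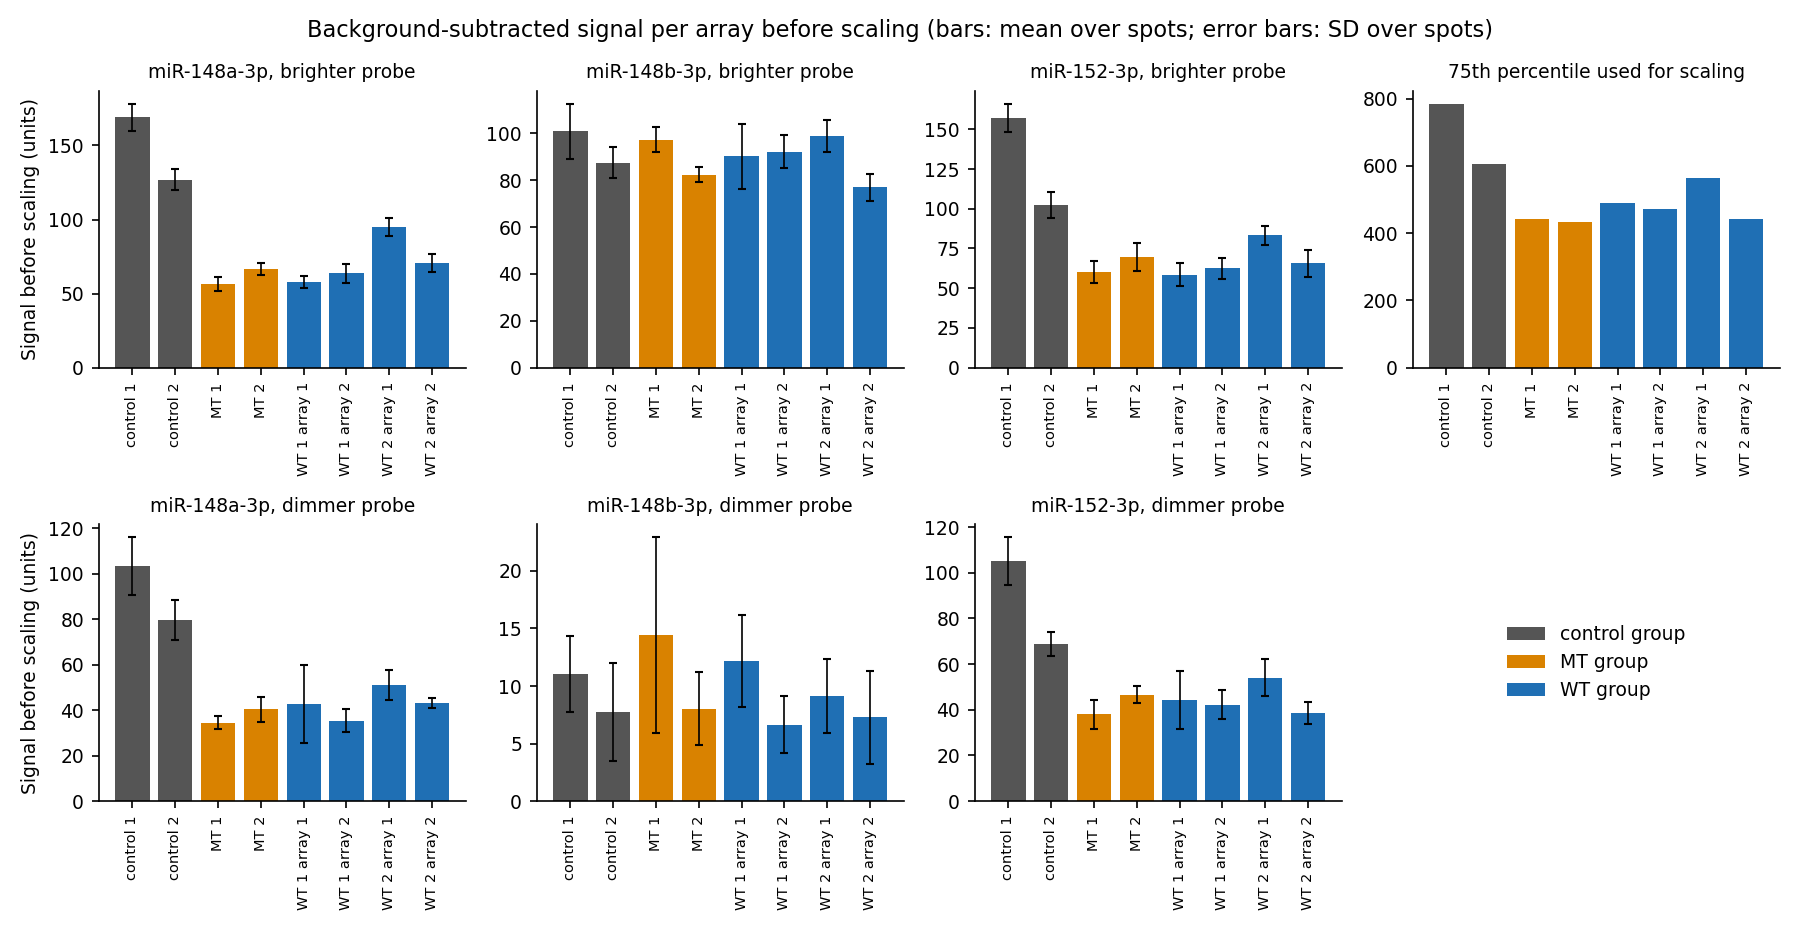
Background-subtracted signal (units, linear axes from 0, each probe on its own axis) of both probes of each member on the 8 arrays, with bars for the mean over spots and error bars for the SD over spots, and the 75th percentile of each array. Both probes of miR-148a-3p and of miR-152-3p are highest on the 2 control arrays, whereas the brighter probe of miR-148b-3p stays between 76.9 and 101 on all 8.

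The second probe served as a repeat measurement within each array. The dimmer probe of miR-148a-3p gave 35.3 to 50.9 in the WT group, 34.5 to 40.3 in the MT group and 79.6 to 103 in the control group, and was detected on 7 of 8 arrays. For miR-152-3p the dimmer probe gave 38.6 to 54.1 in the WT group, 38.0 to 46.5 in the MT group and 68.8 to 105 in the control group, detected on 8 of 8. Both pairs of probes thus ordered the groups alike. For miR-148b-3p the dimmer probe stayed between 6.63 and 14.4 and was not well above background on any array, so the values of miR-148b-3p rest on 1 probe.

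The brighter probes were detected on 8 of 8 arrays, and their spots varied little. The median CV over spots of an array was 6.82% for miR-148a-3p, 7.64% for miR-148b-3p and 11.3% for miR-152-3p. The passenger arm miR-148a-5p, with 4 probes, was not well above background on any array, and its probes read between -7.79 and 10.8 units. No array probe carried the name of the 5p arm of miR-148b or miR-152.

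After scaling, log2 values were compared over RNA samples, with the 2 arrays of a WT sample averaged. For miR-148a-3p the WT samples were at 6.03 and 6.41 (mean 6.22 ± 0.27, SD, n = 2), the MT samples at 6.05 and 6.32 (mean 6.18 ± 0.19, n = 2) and the control samples at 6.80 and 6.76 (mean 6.78 ± 0.03, n = 2). The control group was highest, and the WT and MT groups overlapped. For miR-152-3p the WT samples were at 6.03 and 6.26 (mean 6.14 ± 0.17, n = 2), the MT samples at 6.15 and 6.39 (mean 6.27 ± 0.17, n = 2) and the control samples at 6.70 and 6.46 (mean 6.58 ± 0.17, n = 2). Again the control group was highest, with its lower sample close to the higher MT sample, and WT and MT overlapped.

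For miR-148b-3p the order was turned around. The WT samples were at 6.62 and 6.50 (mean 6.56 ± 0.08, n = 2), the MT samples at 6.84 and 6.63 (mean 6.73 ± 0.15, n = 2) and the control samples at 6.06 and 6.23 (mean 6.14 ± 0.12, n = 2). The control group was lowest, and WT and MT were next to each other, with the lower MT sample within the range of the WT arrays. The 2 arrays of 1 WT sample differed by at most 0.19 in miR-148a-3p, 0.15 in miR-152-3p and 0.09 in miR-148b-3p, whereas the 2 WT samples differed by 0.38, 0.24 and 0.12.

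**Figure D2:**
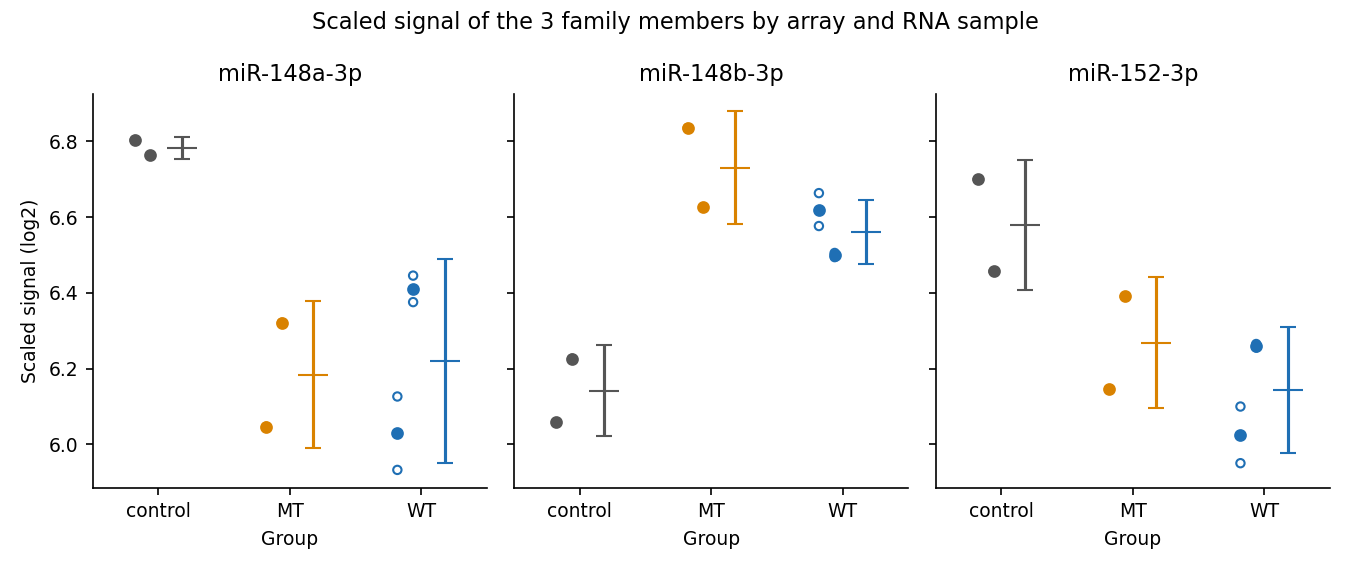
Scaled log2 signal of the 3 members by group; open circles are single arrays of the WT samples, filled circles are RNA samples, and bars give the mean ± SD over the 2 RNA samples of a group (levels of different panels belong to different probes and are not comparable). For miR-148a-3p and miR-152-3p the control samples lie above all induced samples, and for miR-148b-3p they lie below.

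The first comparison asked what wild type IhhN did to the family. In the WT group compared to the control group, miR-148a-3p was lower by a log2 difference of -0.56 (95% interval -1.01 to -0.12, a 1.48-fold difference) and miR-152-3p by -0.44 (-0.86 to -0.01, 1.35-fold). In contrast, miR-148b-3p was higher by 0.42 (0.04 to 0.80, 1.34-fold). By limma with Benjamini-Hochberg adjustment over the 142 miRNAs tested, none of these differences passed the threshold of 0.05, with adjusted p of 0.139, 0.167 and 0.153. The unadjusted limma p were 0.0207, 0.0458 and 0.0357, under 0.05 for 3 of 3 members. This did not hold under many other settings: miR-148a-3p stayed under 0.05 in 14 of 21 alternatives, miR-152-3p in 5 of 21 and miR-148b-3p in 9 of 20.

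These counts have to be read against the background. Of the 142 miRNAs, 0 (0%) passed the adjusted threshold in this comparison, 40 (28.2%) had an unadjusted p under 0.05 (15 lower, 25 higher), and 74 (52.1%) had WT and control arrays that did not overlap, as did 3 of 3 members. The lack of overlap is therefore no particular feature of the family. The count of 40 was 4 without WT replicate 1, 26 without control replicate 2, 12 with the total gene signal of the scanner software and 3 with the percentile over all mouse probes. Over all 142 miRNAs the median difference was 0.11, and relative to that median miR-148a-3p was at -0.67, miR-152-3p at -0.54 and miR-148b-3p at 0.31.

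The second comparison, MT against control, gave like values with the E95K protein. miR-148a-3p differed by -0.60 (95% interval -1.05 to -0.15, 1.51-fold lower), miR-152-3p by -0.31 (-0.74 to 0.11, 1.24-fold lower) and miR-148b-3p by 0.59 (0.21 to 0.97). The limma adjusted p were 0.0752, 0.219 and 0.0611, and the unadjusted p 0.0159, 0.127 and 0.00817. No member passed the adjusted threshold, and 2 of 3 had an unadjusted p under 0.05. That held in 17 of 22 alternatives for miR-148a-3p and in 17 of 21 for miR-148b-3p. Among all 142 miRNAs 0 (0%) passed after adjustment, 56 (39.4%) had an unadjusted p under 0.05 (18 lower, 38 higher) and 96 (67.6%) had arrays that did not overlap, as did 3 of 3 members. The count of 56 was 22 without MT replicate 1, 34 without control replicate 2, 24 with the total gene signal, 36 with the second brightest probe and 26 with the percentile over all mouse probes. Relative to the median of all miRNAs, 0.13, the members were at -0.73, -0.44 and 0.46. Since both comparisons use the same control samples, their likeness is no independent repeat.

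The third comparison asked whether the mutation altered the level of the family. Between the WT and MT groups miR-148a-3p differed by 0.04 (95% interval -0.41 to 0.48), miR-148b-3p by -0.17 (-0.55 to 0.21) and miR-152-3p by -0.13 (-0.55 to 0.30), with limma adjusted p of 1.00, 0.990 and 0.990. The interval of miR-148a-3p reaches 0.48, short of the size of its differences from control (-0.56 and -0.60). That of miR-152-3p reaches -0.55, beyond its differences from control (-0.44 and -0.31). For miR-148b-3p it reaches -0.55 as well, where the differences from control were 0.42 and 0.59. Differences between WT and MT close in size to those from control are thus not excluded. By limma 0 of 142 miRNAs (0%) passed after adjustment, 0 (0%) had an unadjusted p under 0.05, and 21 (14.8%) had arrays that did not overlap, of which 0 were members.

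**Figure D3:**
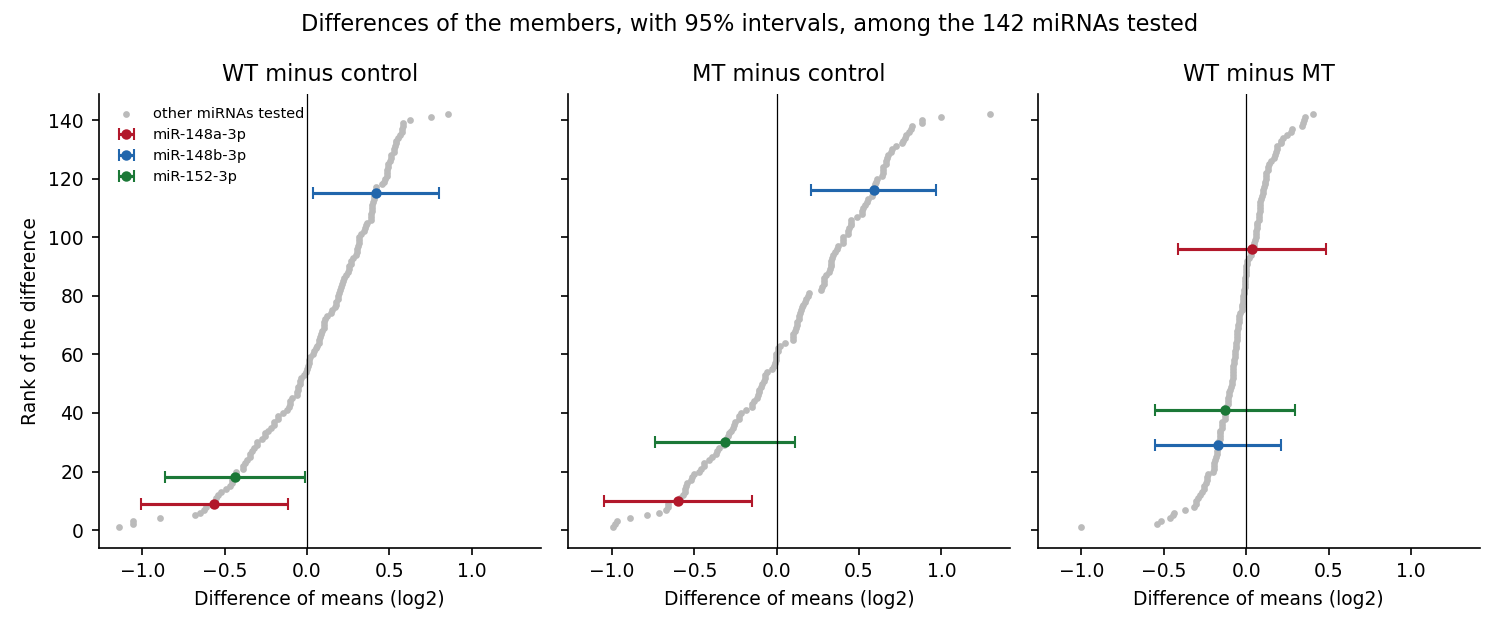
Log2 difference of group means (x axis) against its rank among the 142 miRNAs tested (y axis) in the 3 comparisons, with 95% intervals for the members and grey points for the other miRNAs. Against control, miR-148a-3p and miR-152-3p sit at the lower end and miR-148b-3p towards the upper end, and between WT and MT all 3 intervals cross 0.

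The direction of miR-148b-3p depended on how the arrays were scaled. With the 75th percentile taken over all mouse probes, its difference was 0.06 in the WT group and -0.13 in the MT group, while miR-148a-3p was at -0.92 and -1.31 and miR-152-3p at -0.79 and -1.03. This scaling moved the median of all miRNAs to -0.19 and -0.51, and the share of the 142 miRNAs above control from 61.3% to 29.6% in the WT group and from 57.7% to 10.6% in the MT group. Relative to those medians miR-148b-3p remained above, at 0.25 and 0.39, and miR-148a-3p (-0.73 and -0.80) and miR-152-3p (-0.61 and -0.51) remained below. Between WT and MT the same scaling turned the sign of miR-148b-3p to 0.19 and of miR-152-3p to 0.23.

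Position on the slide moved with the groups. The MT arrays and WT replicate 1 lay in the left columns, and the control arrays and WT replicate 2 in the right columns. All WT arrays lay in row 1 and all MT and control arrays in row 2, so WT and the row of the slide cannot be told apart in either comparison of the WT group, and the values by column that follow are not matched for row. Within the right columns, WT replicate 2 minus the control mean was -0.37 for miR-148a-3p, -0.32 for miR-152-3p and 0.36 for miR-148b-3p, the same directions at a smaller size. Within the left columns, WT replicate 1 minus the MT mean was -0.15, -0.24 and -0.11. MT and control shared no side, so their difference and the side of the slide cannot be told apart without the WT samples. With side as a term in the fit, the MT-to-control differences became -0.22, -0.08 and 0.47 in the same order, no member had an unadjusted limma p under 0.05 in any comparison, and the miRNAs with one numbered 4 of 142 in the WT and 0 in the MT comparison with control.

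Differences between members within 1 RNA sample do not depend on the divisor of an array, which cancels in them. Quantile normalization, which has no single divisor, can alter them. For miR-148a-3p minus miR-148b-3p the samples were at -0.59 and -0.09 in the WT group, -0.79 and -0.30 in the MT group, and 0.75 and 0.54 in the control group. All induced samples were below both control samples. The change against control was -0.98 in the WT group (1.97-fold) and -1.19 in the MT group (2.28-fold). For miR-152-3p minus miR-148b-3p the samples were at -0.59 and -0.24 in the WT group, -0.69 and -0.24 in the MT group, and 0.64 and 0.23 in the control group, again with no overlap. This made a change of -0.85 (1.81-fold) in the WT group and -0.90 (1.86-fold) in the MT group. Both changes were smaller with normexp background correction, which adds an offset of 50 units. They were then -0.56 and -0.69 for miR-148a-3p minus miR-148b-3p, and -0.44 and -0.51 for miR-152-3p minus miR-148b-3p. Both pairs were added after seeing the data, and the share of other miRNA pairs without overlap was not counted. Among single miRNAs, scaled arrays did not overlap with control in 52.1% (WT) and 67.6% (MT). These shares belong to another measure, and the lack of overlap is not read as a feature of these pairs.

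With 2 samples against 2, the exact two-sided permutation test cannot give a p below 0.333, which was its value for both pairs of members against control in both induced groups. These are the members whose mature forms differ at 2 aligned positions. The value of miR-148b-3p in both pairs comes from a single probe.

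miR-152-3p and miR-148a-3p moved more closely together. Their difference was -0.0044 and -0.15 in the WT group, 0.10 and 0.07 in the MT group, and -0.10 and -0.31 in the control group. The WT samples overlapped the control samples, with a change of 0.13 (exact permutation p = 0.667), and the MT samples lay above both control samples, with a change of 0.29 (exact permutation p = 0.333). Without control replicate 1 these changes were 0.23 and 0.39, and without control replicate 2 they were 0.027 and 0.19. The change in the WT group was 0.055 without WT replicate 1 and 0.20 without WT replicate 2. Between WT and MT the change was -0.16, and the samples did not overlap (exact permutation p = 0.333, the lowest this test can give). This pair too was added after seeing the data, and the share of other pairs without overlap was not counted. Among single miRNAs, 14.8% had scaled WT and MT arrays that did not overlap. The lack of overlap in this pair is therefore not read as a difference between the proteins.

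Set against the mean of both paralogues, miR-152-3p was at -0.30 and -0.19 in the WT group, -0.30 and -0.08 in the MT group, and 0.27 and -0.04 in the control group. Both induced groups lay below the control group, by -0.36 and -0.31 (exact permutation p = 0.333 each), and the WT and MT groups overlapped (-0.06, exact permutation p = 0.667). The control replicates differed by more than the gap between the lower control sample and the higher MT sample. Without control replicate 1 the changes were -0.21 and -0.15, and without control replicate 2 they were -0.52 and -0.46. Without MT replicate 1 the change in the MT group was -0.20. The paralogues themselves pointed in opposite directions, so their mean describes neither.

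**Figure D4:**
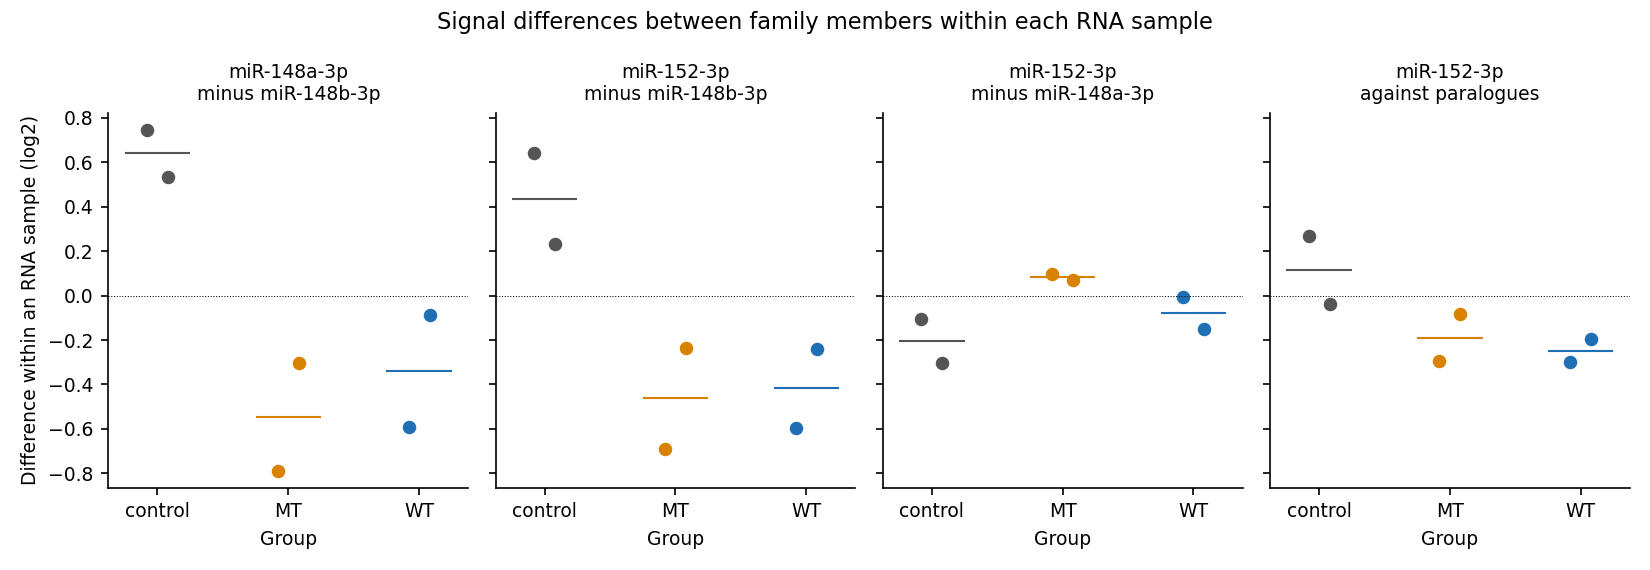
Log2 difference between members within each RNA sample by group, with points for the 2 samples and a line for their mean; only shifts between groups are to be read. The induced samples lie below the control samples wherever miR-148b-3p is subtracted, and miR-152-3p minus miR-148a-3p shifts by 0.13 and 0.29 only.

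The scanner software also gives a total gene signal per miRNA, and for this family it did not keep the members apart. A mismatch was not particular to the family. Of the 130 to 177 miRNAs the software detected per array, 42 to 54 had totals over 10% away from the sum of their own probes. For miR-148a-3p and miR-152-3p it equalled the sum made from their own probes on each array, for example 181 on the array of control replicate 1 for miR-148a-3p and 174 for miR-152-3p. The total for miR-148b-3p on that array was 247, whereas its own probes gave 74.2, and its brighter probe together with both probes of miR-148a-3p gave 247. The same sum matched on all 8 arrays, for example 126 on the first array of WT replicate 1. In this column miR-148b-3p therefore carries the signal of miR-148a-3p, and its difference from control was -0.27 in the WT group and -0.29 in the MT group, opposite in sign to that of its own probe. Values of the family were taken from its own probes for this reason.

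Base composition differed little within the family and varied with the differences across all miRNAs. The GC content was 40.9% in miR-148a-3p and in miR-148b-3p and 47.6% in miR-152-3p. Over the 118 tested miRNAs with a sequence, Pearson's r between GC content and the difference from control was 0.48 in the WT group and 0.52 in the MT group, as a description over miRNAs that share the same arrays. The 68 miRNAs under 50% GC had median differences of -0.06 and -0.13, and the 50 at or above it 0.31 and 0.40. All 3 members belong to the first set, where miR-148a-3p and miR-152-3p were below the median and miR-148b-3p above it. The part of base composition in the differences was not tested.

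**Figure D5:**
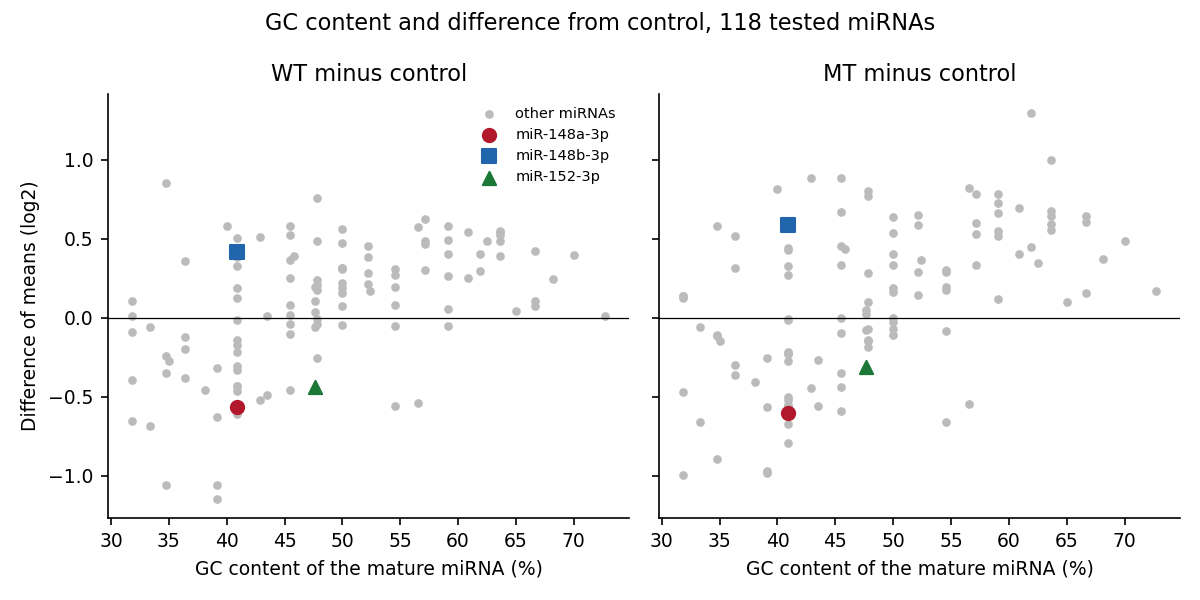
GC content of the mature miRNA (%, x axis) against the log2 difference from control (y axis) for the 118 tested miRNAs with a sequence, in the WT and MT groups. miR-148a-3p and miR-148b-3p share 40.9% GC and lie on opposite sides of 0.

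Each member was then set beside the other 139 tested miRNAs by its pattern over the 6 RNA samples. Most like miR-148a-3p were miR-31-3p (Pearson's r = 0.98), miR-26b-5p (0.98) and miR-34c-5p (0.98). The nearest to miR-148b-3p were miR-93-5p (0.99), let-7b-5p (0.99) and let-7a-5p (0.99), and to miR-152-3p miR-146a-5p (0.96), miR-20a-5p (0.95) and miR-20b-5p (0.93). Between members, r was 0.91 for miR-148a-3p with miR-152-3p, -0.94 for miR-148a-3p with miR-148b-3p and -0.84 for miR-148b-3p with miR-152-3p. These r describe 6 samples that share 1 slide and 1 set of scaling factors and follow mainly the step from control to induced samples. The 3 neighbours of miR-148a-3p were below control in both induced groups, for example miR-26b-5p by -0.68 and -0.66, and the 3 neighbours of miR-148b-3p were above, for example miR-93-5p by 0.45 and 0.65.

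Other miRNAs known to target DNA methyltransferases were read from a list of 9, which holds the 3 family members, the miR-29 family and others, and all 9 were tested. None passed after adjustment in any comparison by limma. In the WT group 3 of 9 were lower and 1 higher than control at an unadjusted p under 0.05, all but miR-29b-3p of them family members, against 28.2% of all miRNAs in either direction (15 lower and 25 higher), with a list median of -0.30 against 0.11 over all miRNAs. In the MT group 2 were lower and 1 higher, against 39.4% of all miRNAs (18 lower and 38 higher), with a list median of -0.31 against 0.13. The lowest was miR-29b-3p, which targets Dnmt3a and Dnmt3b, at -1.06 in the WT group and -0.89 in the MT group (limma adjusted p = 0.139 and 0.0611). The member of this list above control at that level was miR-148b-3p in both groups. Of the 9, 0 had an unadjusted p under 0.05 between WT and MT.

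Of 12 miRNAs known from adipocyte differentiation, 9 were detected and tested, and none passed after adjustment. miR-148a-3p had the smallest p of the list in both induced groups and was the 1 member under an unadjusted 0.05 with wild type IhhN. With the E95K protein 2 were, the other being miR-130a-3p, known to repress Pparg, at -0.55 (limma adjusted p = 0.0893). The list medians were 0.02 and -0.10, against 0.11 and 0.13 over all miRNAs, so most of the list did not share the lower values of miR-148a-3p.

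The genes of miR-152, miR-142 and the miR-34b/c cluster lie within 25 kb of a WT Gli1 peak in the study's own list, which comes from the same experiment and is not independent of it. For its peaks the paper used a sample group chosen by level of IHH activation. It reports no significant Gli1 consensus sequence in the peaks, and a check of a subset of them by real time PCR. Of 8 mature forms, 7 had probes, and 5 were tested, whereas both forms of miR-142, a blood miRNA, were detected on no array. None of the 5 passed after adjustment. In the WT group 3 of 5 were lower than control at an unadjusted p under 0.05: miR-34b-5p at -0.63, miR-34c-5p at -0.39 and miR-152-3p at -0.44 (limma adjusted p = 0.139, 0.159 and 0.167). The other two were above control, miR-34b-3p by 0.37 and miR-34c-3p by 0.19, and over all miRNAs the share was 28.2%, with 15 of 142 lower. In the MT group 2 were lower (miR-34b-5p at -0.57 and miR-34c-5p at -0.39) and 1 higher (miR-34b-3p at 0.45), against 39.4% of all miRNAs. The list medians against control were -0.39 and -0.31, and between WT and MT the median was -0.06, with 0 of 5 under an unadjusted p of 0.05. For miR-152-3p itself the difference between the 2 proteins was -0.13, smaller than the 0.17 SD between replicates of either group.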

How the data were processed

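Small RNA of 6 RNA samples was measured on 8 one-colour Agilent miRNA arrays. The authors deposited the scanner output, with the background-subtracted intensity of each spot and no normalization between arrays. The series table holds the same intensity values to within 0.005 units (array medians -0.09 to 2.31). The submitters' notes name Feature Extraction 9.1 and the file headers 10.7. The paper names a further, later version, in a passage on gene expression arrays that also mentions microRNA arrays. Which version applies was not settled, and no source used here gives the normalization the authors applied.

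Outlier spots were left out and the spots of a probe averaged. A probe counted as detected where over 50% of its spots were well above background. To scale an array, its values were divided by their 75th percentile over 174 probes, those detected on all 8 arrays, and multiplied by the geometric mean of these percentiles. A floor (log2 4.08) was set, log2 was taken, and the brightest probe stood for a miRNA. The 142 miRNAs detected on all arrays of a group were fitted over all 3 groups without a replicate block, using limma 3.58.1 in R 4.3.3 (lmFit, eBayes, Benjamini-Hochberg, threshold 0.05, 6.89 total degrees of freedom). Simulated data with known changes were used to check the fit. Member-to-member differences used the exact two-sided permutation test. Figures were drawn with matplotlib 3.10.9. Each array had 13715 spots.

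The members and lists were chosen with earlier results of these data known. Lists came from general knowledge, apart from genes near Gli1 peaks, whose names came from the study. Named miRNAs were the members and their 5p arms, the 3 miRNAs most correlated with each member, and up to 3 miRNAs per list with the smallest unadjusted p under 0.05. Alternatives covered scaling, background correction, signal column, floor, filter, probes, outlier spots, technical arrays, random and replicate blocks, samples fitted, trend, side of the slide and leaving out each replicate. Tests of pairs of members other than miR-152-3p against the mean of its paralogues, and a crossed pairing, were added after seeing the data. The slide could not be a block, since all arrays lay on it.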

Additional observations from a re-analysis of the deposited data

How the results depend on the processing

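Over 20 to 22 alternatives for each difference from control, that of miR-148a-3p ranged from -0.92 to -0.10 in the WT group and from -1.31 to -0.17 in the MT group and never changed sign. That of miR-152-3p ranged from -0.79 to 0.02 and from -1.03 to 0.01, and that of miR-148b-3p from -0.27 to 0.50 and from -0.29 to 0.69. Relative to miR-148b-3p, miR-148a-3p (-1.43 to -0.36) and miR-152-3p (-1.13 to -0.18) stayed below control in both groups in all 13 alternatives. Percentile and floor settings could not alter these, nor single WT arrays those of MT, and total gene signal gave the smallest. With the percentile over all mouse probes, miR-148b-3p reversed to -0.13 (MT minus control) and 0.19 (WT minus MT), and miR-152-3p to 0.23 (WT minus MT), as the divisor of each array changed. With the total gene signal, miR-148b-3p reversed to -0.27, -0.29 and 0.023 (WT and MT against control, WT minus MT), miR-152-3p against its paralogues to 0.052 (MT minus control) and miR-152-3p minus miR-148b-3p to -0.049 (WT minus MT), since that column adds the probes of miR-148a-3p to miR-148b-3p. This setting called 3 miRNAs in WT and 3 in MT against control, where the chosen setting called 0. With normexp, the calls were 22 and 40, miR-152-3p reversed to 0.018, 0.013 and 0.0050 and its value against the paralogues to 0.0021 (WT minus MT), and miR-148b-3p passed at 0.53 in MT minus control (adjusted p = 0.018). Normexp added an offset of 50 units to each spot, against 56.4 to 169 for the members' brighter probes in the chosen setting. The part of this offset in the differences was not tested.

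At 0.5 times the floor, 1 miRNA was called in each induced group against control, and 1 in the MT group without a filter, where limma reported that most residual variances were exactly 0 and its moderation is unreliable. With only the 103 miRNAs detected on all 8 arrays, 29 were called in MT minus control. Among them were miR-148a-3p at -0.60 (limma adjusted p = 0.044) and miR-148b-3p at 0.59 (limma adjusted p = 0.037). Their unadjusted limma p changed as well, to 0.0112 and 0.00723 from 0.0159 and 0.00817. Fitting the 8 arrays singly, with RNA sample as random block, called 11. Values close to 0 changed sign in WT minus MT: miR-152-3p minus miR-148b-3p with the mean of all probes (-0.019) and outlier spots kept (-0.012), and miR-148a-3p with outlier spots kept (-0.0096) and with a term for the slide side (-0.15). The second brightest probe of miR-148b-3p lay at the floor, or barely above it on the array of MT replicate 1. That setting therefore gave no value for miR-148b-3p or for changes that use it.

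Leaving out 1 replicate at a time, where the lone sample was assumed to vary like the others, WT minus MT ranged from -0.15 to 0.23 for miR-148a-3p, from -0.16 to 0.048 for miR-152-3p against its paralogues, from -0.18 to 0.27 for miR-152-3p minus miR-148b-3p and from -0.044 to 0.46 for miR-148a-3p minus miR-148b-3p. The calls ranged from 0 to 18 in MT minus control (18 without MT replicate 2) and from 0 to 1 in WT minus MT. Same-numbered replicates did not pair (correlations of their deviations 0.02, 0.39 and -0.46). A replicate block cannot move the differences in this balanced design (-0.56, 0.42 and -0.44 for WT minus control). It gave 0 calls, and the unadjusted p of miR-152-3p in WT minus control went from 0.0458 to 0.0637. A crossed pairing of MT and control called 58 miRNAs, with miR-148a-3p at -0.60 and miR-148b-3p at 0.59. It was chosen from these data, not labels, so its p are not valid.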
